A study of Rattus norvegicus with 5 samples.

Results

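The genes described here are those of the extracellular matrix, of the enzymes that cut it, of the integrins that bind it and of hepatic stellate cells. The rule takes them by gene symbol and uses no measured value, though it was written with earlier results of these data known: collagens, laminins, matrix metalloproteinases (Mmp), their tissue inhibitors (Timp), Adamts proteases, integrins, and the stellate or mesenchymal genes Des, Vim, Fn1, Dcn, Lum, Tgfb1, Pdgfrb, Lrat and Lox. A collagen gene was left out of the choice by name and is not reported here. The choice gave 42 probe sets, each of a different gene, among 7603 probe sets with 1 gene symbol and 8797 in all. The myofibroblast actin gene Acta2 was part of the choice by name and had no probe set with 1 symbol, so it was not analysed here. Gene expression was measured on Affymetrix Rat Exon 1.0 ST arrays in liver of male rats aged 4 months on standard chow, with 3 arrays of PD and 2 of PD.SHR4. PD, the polydactylous rat, is the inbred progenitor strain. PD.SHR4, called PD.SHR4a in the series text, is congenic: it has the PD background with a chromosome 4 segment from the spontaneously hypertensive rat, SHR, a strain deficient in the fatty acid transporter Cd36. Labelled cDNA of 8 rats was pooled for each strain, so the p-values speak of array-to-array spread, possibly technical, and do not cover differences among rats.

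The liver's matrix lies mainly around portal tracts and vessels and, as a sparse layer, in the space between hepatocytes and the sinusoidal endothelium. Hepatic stellate cells sit in that space, store vitamin A as retinyl esters made by Lrat, and in injury turn into myofibroblasts that respond to transforming growth factor beta and platelet-derived growth factor and lay down fibrillar collagen. Metalloproteinases of the Mmp and Adamts families cut collagens, proteoglycans and other matrix proteins, Timp proteins block them, and integrins, pairs of an alpha and a beta chain, link the matrix to the cytoskeleton.

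As a check of the labels, Cd36, measured by a probe set it shares with Cd36l1, was 9.11-fold lower in PD.SHR4. Array medians lay between 5.21 and 5.38 on the log2 scale and lower quartiles between 2.84 and 2.93, and over all probe sets the correlation r was 0.988 to 0.994 within a strain and 0.986 to 0.987 between strains. The 7 measured hepatocyte markers, albumin and transthyretin among them, lay above the median of every array. The values carry no detection calls. Of the 42 genes, 18 lay above the median of every array and 6 under the lower quartile in all of them, namely Itgb3bp, Lum, Itgb6, Mmp10, Mmp3 and Mmp7, whose levels cannot be told from background. None of the 42 genes is on chromosome 4, the chromosome of the SHR segment. That statement does not cover the collagen gene left out by name. The 42 genes are spread over 15 chromosomes.

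A single matrix gene passed the test between the strains. Mmp12, the macrophage metalloelastase, rose 2.35-fold in PD.SHR4, and the next in rank was its family's inhibitor Timp3, at 1.88-fold higher, which did not pass. Thus 1 of the 42 genes rose (limma, adjusted p under 0.05), beside 0.273% of all 8797 probe sets, and 0 fell, beside 0.659% of all. At an unadjusted p under 0.05 there were 3 genes on each side, in all 6 of 42 or 14.3%, beside 13.8% of all probe sets. The PD and PD.SHR4 values were fully separated for 14 of the 42 genes, or 33.3%, beside 31.9% of all, so both shares lay near those of the array as a whole.

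The size of the differences was likewise small. The median log2 difference, PD.SHR4 minus PD, was 0.036 over the 42 genes, with 23 values above 0 and 19 below, and 2.0e-04 over all probe sets. The median size of the difference, without its sign, was 0.12 for the 42 genes and 0.16 over all probe sets. A difference of at least 1.5-fold was measured for 3 of the 42 genes, Mmp12, Timp3 and Lrat, a share of 7.14% beside 7.68% of all probe sets.

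**Figure D1:**
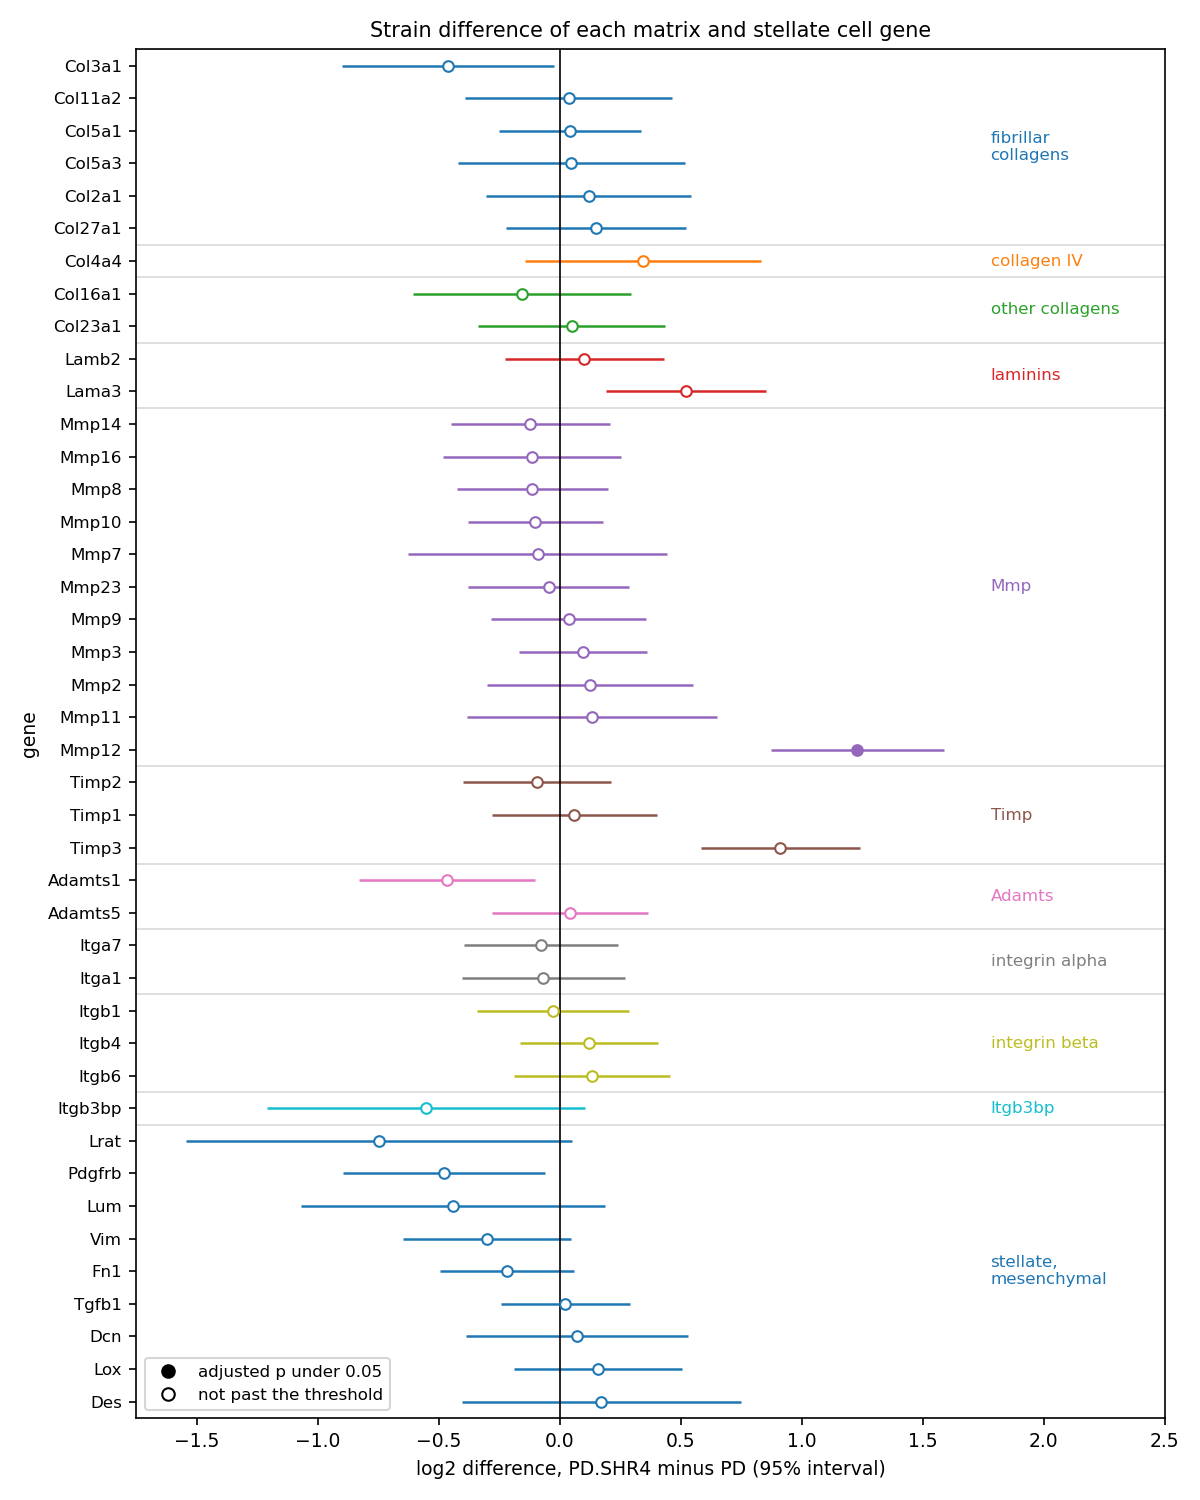
Log2 difference between the strains (PD.SHR4 minus PD, x axis) of each of the 42 genes, grouped by role, with points for the fitted difference and bars for its 95% interval over 3 PD and 2 PD.SHR4 arrays. The filled point is Mmp12 at 1.23, the gene past the threshold; Timp3 is next at 0.91, and most intervals cross 0.

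Mmp12 degrades elastin and is made mainly by macrophages. It measured 3.26, 3.46 and 3.17 in PD arrays 1 to 3 and 4.63 and 4.42 in PD.SHR4 arrays 1 and 2. Each PD.SHR4 array lay above every PD array, at 3.29 ± 0.15 (SD, n = 3) in PD and 4.53 ± 0.15 (SD, n = 2) in PD.SHR4. The log2 difference was 1.23 ± 0.14 (SE), with a 95% interval of 0.87 to 1.59 (limma, adjusted p = 0.0392). Its level was below the median of each array in both strains. In PD it lay not far above the lower quartiles, which were 2.84 to 2.93. Without detection calls that level cannot be told from background, so the size of the fold is uncertain. The call depended on which arrays were in the fit: the adjusted p was 0.0865 without PD array 1, 0.117 without PD array 3, 0.265 without PD.SHR4 array 1 and 0.302 without PD.SHR4 array 2, at log2 differences of 1.13 to 1.34. Without PD array 2 it passed (adjusted p = 0.0465). In the fits without a PD.SHR4 array, the remaining one was assumed to vary like PD.

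Markers of macrophages lay mostly below 0, and whether they bear on Mmp12 was not tested. Of 6 measured markers, 5 had values below 0 and 1 above, 0 passed the test, and their median log2 difference was -0.40. The adaptor Tyrobp measured -0.80 ± 0.12 (SE; limma, adjusted p = 0.0572) and the macrophage receptor Adgre1 -0.71 ± 0.16 (SE; adjusted p = 0.124), while Clec4f, a Kupffer cell lectin, measured -0.079. Vsig4 measured -0.57 and Cd14 -0.22. The marker above 0 was Lyz2, at 0.16, with both PD.SHR4 arrays above all of PD. The summed linear level of the 6 markers ran from 3943 to 4416 over the PD arrays and from 3470 to 3529 over the PD.SHR4 arrays. These sums did not overlap. Among all single probe sets, 17.1% lay lower in PD.SHR4 without overlap. None of the 6 was under every array's lower quartile. In bulk tissue, fewer cells of a type and less RNA per cell cannot be told apart.

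Mmp12 lies in a run of 10 Mmp genes on chromosome 8 in the RefSeq gene order (GRCr8), 5 of which were measured. Its 4 measured neighbours had log2 differences of -0.11 for Mmp8, a neutrophil collagenase, -0.10 for the stromelysin Mmp10, 0.094 for the stromelysin Mmp3 and -0.090 for the matrilysin Mmp7 (adjusted p = 0.790 to 0.917, limma). The levels of Mmp3 were 2.57, 2.58 and 2.59 in PD and 2.67 and 2.68 in PD.SHR4, without overlap but within a span of 0.11. Mmp10 measured 1.98, 1.90 and 1.91 in PD and 1.77 and 1.88 in PD.SHR4. The 95% intervals ended at 0.20 for Mmp8, 0.18 for Mmp10, 0.36 for Mmp3 and 0.44 for Mmp7, all below the lower end of the interval of Mmp12. Mmp3, Mmp7 and Mmp10 were among the genes under every array's lower quartile, so a difference in them could be hidden by background. The same may hold for Mmp8, which measured 3.09, 3.06 and 2.88 in PD and 2.85 and 2.94 in PD.SHR4. It lay under the lower quartile in PD array 3 and PD.SHR4 array 1 and close above it in the others. Mmp3 and Mmp10 are close paralogues, and cross-hybridisation between them was not tested.

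The sequences just before the starts of these genes are shown to compare short motifs before Mmp12 with those before its measured neighbours. Mmp3, Mmp7 and Mmp10 were too dim for a difference to be read, and Mmp8 lay near the lower quartiles. Each line gives the 130 bases before the transcript start in the RefSeq promoter table (GRCr8, plus strand, 5′ to 3′), with capitals for matches to TGANTCA, the letters bound by the transcription factor AP-1, and to TATAAA, a core promoter element, or its reverse complement.
Mmp12, chr8:12866522-12866651: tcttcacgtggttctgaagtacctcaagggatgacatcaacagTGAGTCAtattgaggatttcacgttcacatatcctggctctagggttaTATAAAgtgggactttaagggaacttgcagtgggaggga
Mmp3, chr8:12925151-12925280: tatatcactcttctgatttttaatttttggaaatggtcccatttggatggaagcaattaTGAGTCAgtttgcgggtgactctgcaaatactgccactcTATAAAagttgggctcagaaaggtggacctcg
Mmp10, chr8:12974577-12974706: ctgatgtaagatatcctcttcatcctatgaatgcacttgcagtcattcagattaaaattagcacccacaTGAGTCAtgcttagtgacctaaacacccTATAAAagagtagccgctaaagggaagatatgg
Mmp8, chr8:13008760-13008889: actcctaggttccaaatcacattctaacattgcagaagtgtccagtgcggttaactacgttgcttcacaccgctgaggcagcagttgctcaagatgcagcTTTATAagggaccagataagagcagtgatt
Mmp7, chr8:13132913-13133042: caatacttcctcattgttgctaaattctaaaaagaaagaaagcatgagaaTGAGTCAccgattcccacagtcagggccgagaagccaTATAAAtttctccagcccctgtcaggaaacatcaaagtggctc

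In Mmp12 the letters TGAGTCA began 87 bases before the start and TATAAA 39 bases before it. The same pair stood at 71 and 32 bases in Mmp3, at 61 and 33 in Mmp10 and at 80 and 43 in Mmp7. Mmp8 had no match to TGANTCA and had the reverse complement of TATAAA at 30 bases. Over the 250 bases before the start, searched on both strands (TGANTCA is its own reverse complement), 6.34% of 33469 rat promoters held TGANTCA, 12.9% held TATAAA and 1.02% held both. Of the 42 genes, 28 had a promoter in the table. TGANTCA was found in 5 of these, the 4 Mmp genes and Lama3, which had 3 matches, and TATAAA in 7. A match describes the letters of the window and does not show that a factor binds there.

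The other Mmp genes differed little between the strains. Of the 10 other than Mmp12, 0 passed, 4 had values above 0 and 6 below, and the differences ran from -0.12 to 0.13. Mmp14, the membrane-bound activator of the gelatinase Mmp2, measured 8.30, 8.13 and 8.39 in PD and 8.22 and 8.08 in PD.SHR4, and the groups overlapped. Its log2 difference was -0.12 ± 0.13 (SE; 95% interval -0.45 to 0.21, adjusted p = 0.789). Mmp2 itself measured 5.40, 5.86 and 5.81 in PD and 5.84 and 5.78 in PD.SHR4, a difference of 0.12 ± 0.17 (SE; 95% interval -0.30 to 0.55), with PD array 1 lowest. The gelatinase Mmp9 differed by 0.036, the stromelysin Mmp11 by 0.13, the membrane-type enzyme Mmp16 by -0.12 and Mmp23 by -0.046.

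Among the inhibitors, Timp3 had the largest difference. Timp3, the Timp that binds to the matrix and also inhibits Adamts enzymes, measured 6.38, 6.32 and 6.16 in PD and 7.30 and 7.10 in PD.SHR4, with the PD.SHR4 arrays above all of PD. Its log2 difference was 0.91 ± 0.13 (SE; 95% interval 0.58 to 1.24), and the adjusted p of 0.0543 (limma) missed the threshold. It passed in 4 of 11 other fits, at an adjusted p of 0.0408 with an intensity trend and robust shrinkage, 0.0349 without the dimmest 25% of probe sets, 0.0494 after median centring and 0.00689 with array weights. Those weights were 0.484, 0.304 and 4.26 for PD arrays 1 to 3. Timp3 passed in no fit that left out an array (limma, adjusted p = 0.0951, 0.0754 and 0.176 without PD arrays 1, 2 and 3). Nor did it pass with the replicate block (0.0802) or after quantile normalisation once more (0.0603). Timp3 lies inside Syn3, a neuronal synapsin gene, in the RefSeq annotation of chromosome 7, and Syn3 measured 3.86, 3.80 and 3.82 in PD and 3.86 and 4.04 in PD.SHR4, with a difference of 0.12 ± 0.12 (SE).

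Timp1, which is induced in liver injury, measured 6.00, 6.32 and 6.24 in PD and 6.24 and 6.26 in PD.SHR4. The groups overlapped, and the difference was 0.061 ± 0.14 (SE; 95% interval -0.28 to 0.40). Timp2, which takes part in the activation of Mmp2 by Mmp14, measured 7.20, 7.33 and 7.18 in PD and 7.06 and 7.23 in PD.SHR4, a difference of -0.094 ± 0.12 (SE). All 3 Timp genes lay above the median of every array.

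The Adamts genes, 2 in number, lie next to each other on chromosome 11. Adamts1, which cleaves the proteoglycan versican, measured 6.49, 6.74 and 6.76 in PD and 6.08 and 6.31 in PD.SHR4, with every PD array above both PD.SHR4 arrays. Its difference was -0.47 ± 0.15 (SE; 95% interval -0.83 to -0.10, adjusted p = 0.244). Adamts5, an aggrecanase, measured 4.23, 4.35 and 4.49 in PD and 4.46 and 4.34 in PD.SHR4, with overlapping groups and a difference of 0.043 ± 0.13 (SE).

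**Figure D2:**
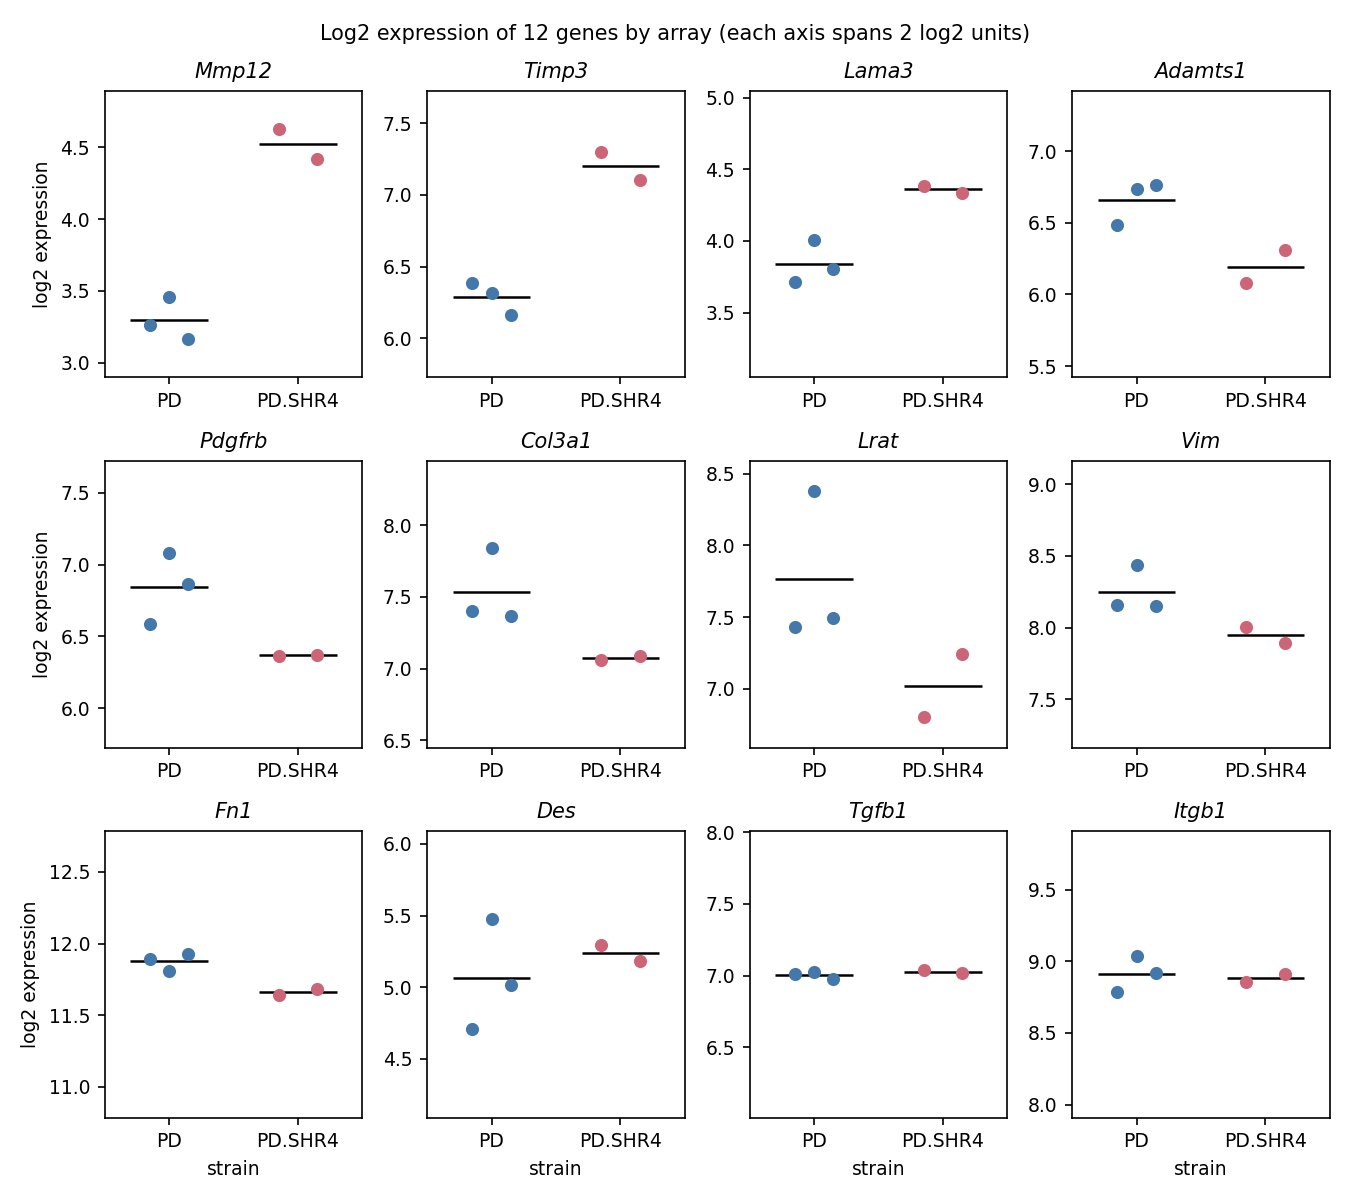
Log2 expression (y axis, each panel spanning 2 log2 units) of 12 genes in the 3 PD arrays (blue, arrays 1 to 3 from left to right) and the 2 PD.SHR4 arrays (red, arrays 1 and 2), with a line at each mean. Mmp12 and Timp3 lie higher in PD.SHR4, Pdgfrb, Col3a1 and Lrat lie lower, with PD array 2 the highest array of each, and Tgfb1 and Itgb1 have nearly equal means.

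The stellate and mesenchymal genes lay lower in the median in PD.SHR4 without any of them passing the test. Of 9 genes, 5 had values below 0 and 4 above, with a median log2 difference of -0.22 beside 2.0e-04 over all probe sets. That median is the value of Fn1, which is not particular to mesenchymal cells, since hepatocytes also secrete fibronectin. Without the dimmest 25% of probe sets, which leaves out Lum, the median of the other 8 was -0.098. For 4 of the 9, Lrat, Pdgfrb, Vim and Fn1, every PD.SHR4 array lay below every PD array, as for 17.1% of all probe sets. Lrat, lecithin retinol acyltransferase and a marker of quiescent stellate cells, measured 7.43, 8.38 and 7.50 in PD and 6.80 and 7.24 in PD.SHR4. PD array 2 stood 0.88 above the next PD array. The difference was -0.75 ± 0.32 (SE; 95% interval -1.55 to 0.052, adjusted p = 0.399), and -0.44 without PD array 2.

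Pdgfrb, the receptor through which platelet-derived growth factor acts on stellate cells, measured 6.59, 7.08 and 6.87 in PD and 6.37 in each PD.SHR4 array. Its difference was -0.48 ± 0.17 (SE; 95% interval -0.90 to -0.059, adjusted p = 0.293), and -0.36 without PD array 2. Vim, the intermediate filament protein of mesenchymal cells, measured 8.16, 8.44 and 8.15 in PD and 8.01 and 7.89 in PD.SHR4. Its difference was -0.30 ± 0.14 (SE; adjusted p = 0.442). Fibronectin, Fn1, which hepatocytes also secrete into plasma, measured 11.89, 11.81 and 11.93 in PD and 11.64 and 11.68 in PD.SHR4, a narrow gap between tight groups. That difference was -0.22 ± 0.11 (SE; 95% interval -0.50 to 0.058, adjusted p = 0.482).

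The remaining stellate and mesenchymal genes did not separate the strains. Des, the muscle-type filament protein desmin that marks rat stellate cells, measured 4.71, 5.47 and 5.01 in PD and 5.29 and 5.18 in PD.SHR4, with PD arrays on both sides. Its difference was 0.17 ± 0.23 (SE), and 0.38 without PD array 2. Tgfb1, the main fibrogenic ligand, measured 7.01, 7.03 and 6.98 in PD and 7.04 and 7.02 in PD.SHR4. The difference of 0.023 ± 0.11 (SE) had a 95% interval of -0.24 to 0.29. Lox, lysyl oxidase, which cross-links collagen and elastin, differed by 0.16 ± 0.14 (SE), with 4.26 in PD.SHR4 array 1 and the other 4 arrays between 3.88 and 4.00.

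Decorin (Dcn) and lumican (Lum), small leucine-rich proteoglycans that bind collagen fibrils, lie next to each other on chromosome 7. Dcn measured 7.67, 7.41 and 7.24 in PD and 7.71 and 7.32 in PD.SHR4, a difference of 0.072 ± 0.19 (SE). Lum, a dim probe set under every array's lower quartile, measured 1.99, 2.73 and 2.75 in PD and 2.08 and 2.02 in PD.SHR4, with PD array 1 below both. Its difference was -0.44 ± 0.26 (SE; adjusted p = 0.543).

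Stellate cell markers outside the chosen genes did not share the lower median. Of 11 measured, 6 had values above 0 and 5 below, with a median of 0.018 (0.13 without PD array 2), and 0 passed. The smallest p-values belonged to the stellate cell globin Cygb, at 0.35 ± 0.14 (SE; limma, adjusted p = 0.332), and calponin, Cnn1, at 0.49 ± 0.19 (SE; adjusted p = 0.346). Cnn1 measured 3.14, 2.62 and 3.07 in PD, near the lower quartiles of the arrays. The 5 below 0 were Tagln at -0.32, Bambi at -0.26, Ptn at -0.24, Gfap at -0.22 and Ngfr at -0.056, while Reln measured 0.018. The summed linear level of the 11 markers was 545 to 632 over the PD arrays and 584 to 647 over the PD.SHR4 arrays. These ranges overlapped through PD array 2 alone: the other PD arrays summed to 544.7 to 570.4, below both PD.SHR4 arrays. A sum of linear levels is weighted to the brighter genes. Tagln measured 5.53, 7.03 and 5.74 in PD and 5.59 and 5.97 in PD.SHR4. Rgs5 measured 7.15, 6.73 and 7.38 in PD and 7.75 and 7.30 in PD.SHR4. None of the 11 was under every array's lower quartile. Portal fibroblast markers, 4 measured, had a median of 0.057, summing to 107 to 111 in PD and 110 to 120 in PD.SHR4, and the 2 mesothelial markers had a median of 0.19.

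Col1a1 and Col4a1 had no probe set with 1 symbol, so they were not analysed here. The collagen gene left out of the choice by name is not counted below. Collagens were represented by 9 genes, and 0 passed. Of these, 7 had values above 0 and 2 below, with a median log2 difference of 0.047. Col3a1, which forms fibrils in the portal and vascular matrix, measured 7.40, 7.84 and 7.37 in PD and 7.06 and 7.09 in PD.SHR4, without overlap. Its difference was -0.46 ± 0.18 (SE; 95% interval -0.90 to -0.026, adjusted p = 0.331), and -0.31 without PD array 2. The other fibrillar collagens, Col2a1, Col5a1, Col5a3, Col11a2 and Col27a1, had differences of 0.037 to 0.15, the last and largest being Col27a1 at 0.15 ± 0.15 (SE; 0.045 to 0.24 as single arrays were left out). All 5 overlapped between the strains.

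Col4a4, a chain of basement membrane collagen IV, measured 3.53, 2.93 and 3.26 in PD and 3.67 and 3.49 in PD.SHR4. Its difference was 0.34 ± 0.20 (SE; adjusted p = 0.541), and 0.19 without PD array 2, the lowest array. Col16a1, a fibril-associated collagen, differed by -0.16 ± 0.18 (SE; -0.29 to -0.025 as single arrays were left out) and the membrane collagen Col23a1 by 0.050 ± 0.16 (SE). Several collagens here are known chiefly from cartilage or other tissues, and their levels in these arrays cannot be told from background without detection calls.

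PD array 2 bore on these values in opposite ways. It was the lowest of the 3 PD arrays for 8 of 9 collagens, all but Col3a1, and the highest for 6 of 9 stellate and mesenchymal genes. Over the whole array it was the lowest PD array for 29.6% of probe sets and the highest for 48.2%. Its array median was the highest of all arrays and its lower quartile the lowest. Without it, the median difference was -0.074 for the 9 collagens, -0.21 for the 9 stellate and mesenchymal genes and -0.022 for all 42, and 24 of the 42 genes had no overlap between strains, beside 49.3% of all probe sets.

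**Figure D3:**
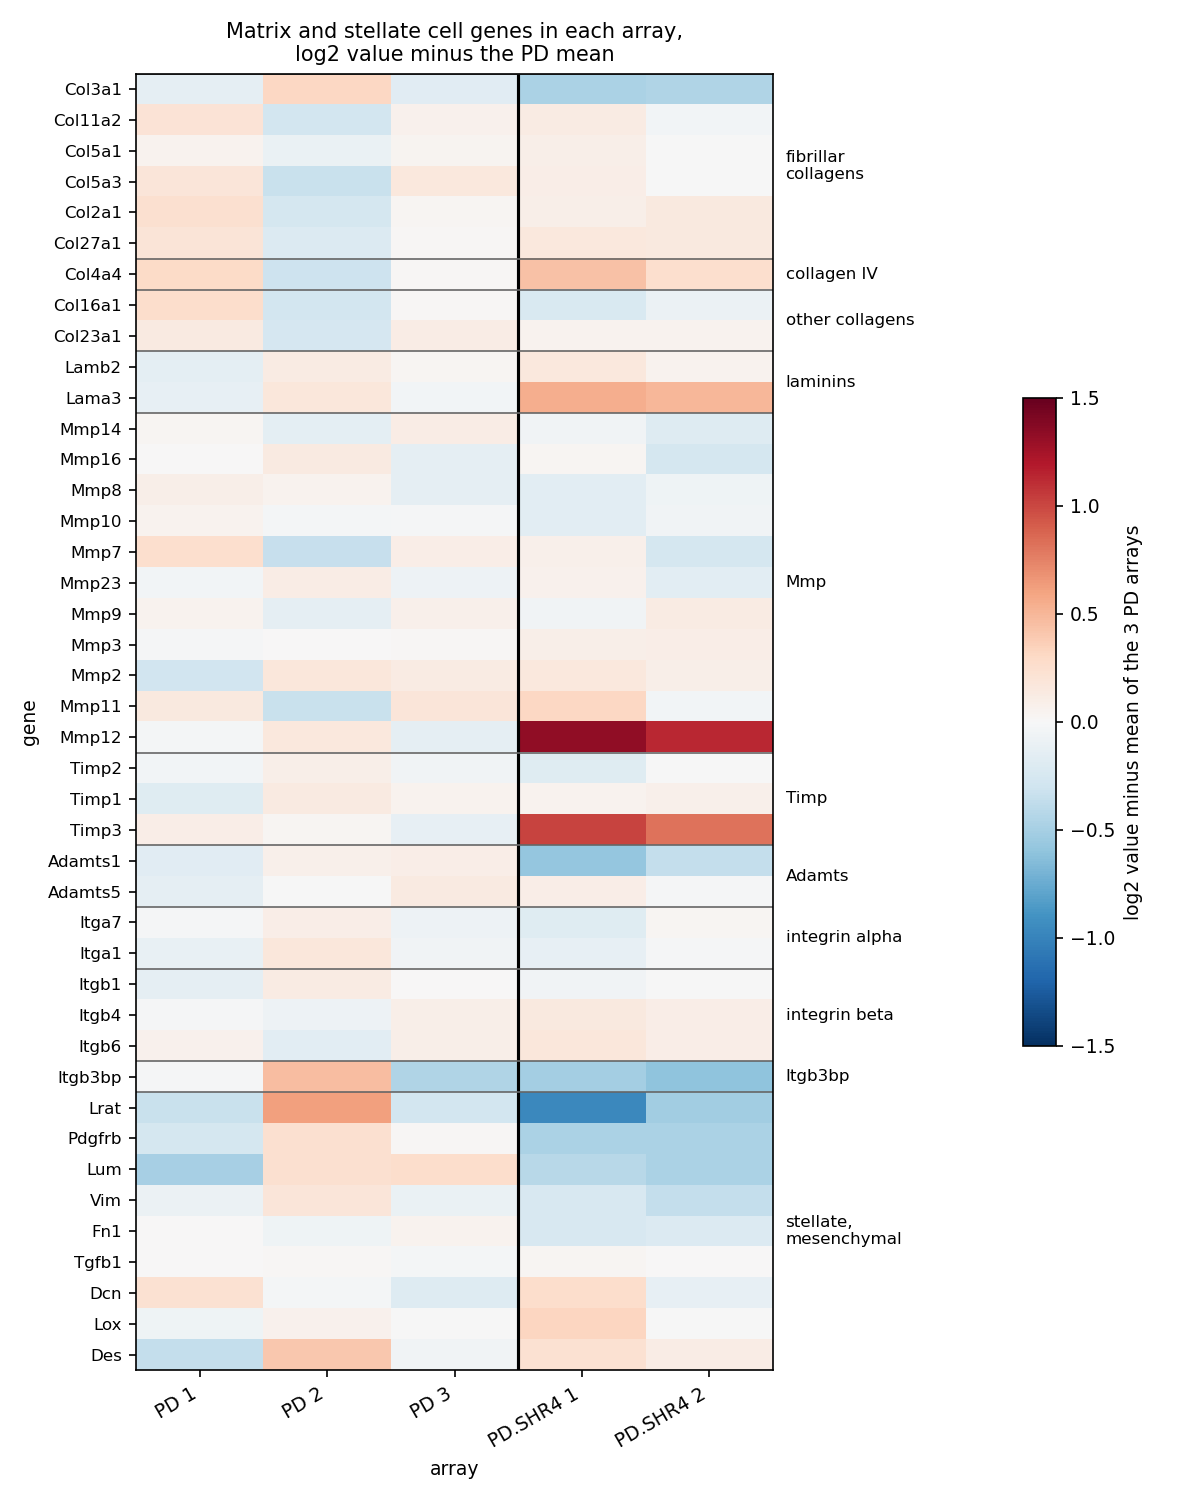
Each of the 42 genes (rows, grouped by role) in each array (columns), coloured by its log2 value minus the mean of the 3 PD arrays, from blue (lower) to red (higher). PD array 2 is blue for 8 of 9 collagens and red for several stellate genes; the PD.SHR4 columns are strongest for Mmp12 and Timp3.

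Laminins, the cross-shaped proteins of basement membranes, were represented by 2 genes. Lama3, an alpha chain of epithelial laminins, measured 3.71, 4.01 and 3.80 in PD and 4.39 and 4.34 in PD.SHR4, with both PD.SHR4 arrays above all of PD. Its difference was 0.52 ± 0.13 (SE; 95% interval 0.19 to 0.85) and did not pass (limma, adjusted p = 0.171). Its level was below the median of each array in both strains, and the values carry no detection calls. Lamb2, a beta chain, measured 4.97, 5.24 and 5.14 in PD and 5.27 and 5.17 in PD.SHR4, a difference of 0.10 ± 0.13 (SE).

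The cholangiocyte keratin Krt19 measured 4.88, 4.63 and 4.34 in PD and 5.08 and 5.16 in PD.SHR4. Its difference was 0.50 ± 0.18 (SE; limma, adjusted p = 0.302). The other cholangiocyte markers were Cldn4, at 0.22, and Epcam, at -0.23 ± 0.22 (SE; adjusted p = 0.741). The 3 measured cholangiocyte markers had a median of 0.22, with 2 values above 0 and 1 below, and 0 passed. Their summed linear level was 135 to 193 in PD and 148 to 151 in PD.SHR4. Without PD array 2 their median was 0.39, and the PD sums, 135 to 139, lay below both PD.SHR4 arrays. Whether they bear on Lama3 was not tested.

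Integrin chains differed little between the strains. Of 5 integrin chains, 2 had values above 0 and 3 below, with differences from -0.078 to 0.13, and 0 passed. Itgb1, the beta chain shared by most collagen, laminin and fibronectin receptors, measured 8.78, 9.03 and 8.92 in PD and 8.86 and 8.91 in PD.SHR4, a difference of -0.029 ± 0.13 (SE; 95% interval -0.34 to 0.28). Its collagen-binding partner Itga1 measured 7.73, 8.02 and 7.80 in PD and 7.73 and 7.84 in PD.SHR4, a difference of -0.069 ± 0.14 (SE). The laminin-binding chain Itga7 differed by -0.078 ± 0.13 (SE).

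The epithelial chains Itgb4, of the laminin receptor, and Itgb6, which activates latent transforming growth factor beta, had no overlap between strains yet small differences. Itgb4 measured 4.18, 4.12 and 4.27 in PD and 4.33 and 4.29 in PD.SHR4, a difference of 0.12 ± 0.12 (SE; adjusted p = 0.738). Itgb6 measured 2.75, 2.52 and 2.77 in PD and 2.85 and 2.78 in PD.SHR4, a difference of 0.13 ± 0.13 (SE; adjusted p = 0.750; 0.053 to 0.18 as single arrays were left out), at a level under every array's lower quartile. Itgb3bp was taken in by its symbol and is not an integrin but a centromere protein that can bind one. It measured 2.21, 2.68 and 1.77 in PD and 1.71 and 1.62 in PD.SHR4, a difference of -0.55 ± 0.27 (SE; adjusted p = 0.451), also at a low level.

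Other genes of the matrix and its signalling, in 5 lists that hold none of the 42, contained no gene that passed. In transforming growth factor beta and platelet-derived growth factor signalling, 22 genes were measured, 11 on either side of 0, with a median of -0.046. Inhba, an activin subunit, measured 6.28, 6.74 and 6.30 in PD and 5.43 and 5.19 in PD.SHR4, a difference of -1.13 ± 0.19 (SE; limma, adjusted p = 0.0671). Pdgfc, a ligand of platelet-derived growth factor receptors, measured 6.34, 6.80 and 6.52 in PD and 7.39 and 7.65 in PD.SHR4, a difference of 0.97 ± 0.18 (SE; adjusted p = 0.0815). The strains did not overlap in either gene.

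Of 13 genes of collagen folding, processing and cross-linking, 5 had values above 0 and 8 below, with a median of -0.029. Pcolce, which enhances the removal of the carboxyl propeptide from procollagen, measured 8.17, 7.42 and 7.42 in PD and 6.02 and 6.04 in PD.SHR4. Its difference of -1.64 ± 0.26 (SE; 95% interval -2.27 to -1.01) was larger in size than that of Mmp12, yet PD array 1 lay well above the other PD arrays and the adjusted p was 0.0606 (limma). Plod1, a lysyl hydroxylase of collagen, measured 7.87, 7.84 and 7.96 in PD and 8.29 and 8.22 in PD.SHR4, a difference of 0.37 ± 0.11 (SE; adjusted p = 0.235).

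The 25 other matrix glycoproteins and proteoglycans had 7 values above 0 and 18 below, with a median of -0.061. Their smallest p-values belonged to Ecm1, a secreted glycoprotein, at 0.32 ± 0.12 (SE; limma, adjusted p = 0.303) and Fbln5, an elastic fibre protein, at -0.54 ± 0.21 (SE; adjusted p = 0.332). Of 17 other proteases and inhibitors, 9 had values above 0 and 8 below, with a median of 0.019 that turned to -0.054 without PD array 2. There the urokinase gene Plau measured 6.97, 7.00 and 6.96 in PD and 6.40 and 6.56 in PD.SHR4, a difference of -0.50 ± 0.12 (SE; adjusted p = 0.135), and the serine protease Htra1 differed by -0.43 ± 0.14 (SE). Of 14 genes of the integrin adhesion complex, 2 had values above 0 and 12 below, with a median of -0.088 (-0.049 without PD array 2). The adaptor Bcar1 differed by -0.70 ± 0.17 (SE; adjusted p = 0.147) and the parvin Parva by -0.32 ± 0.13 (SE; adjusted p = 0.352).

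**Figure D4:**
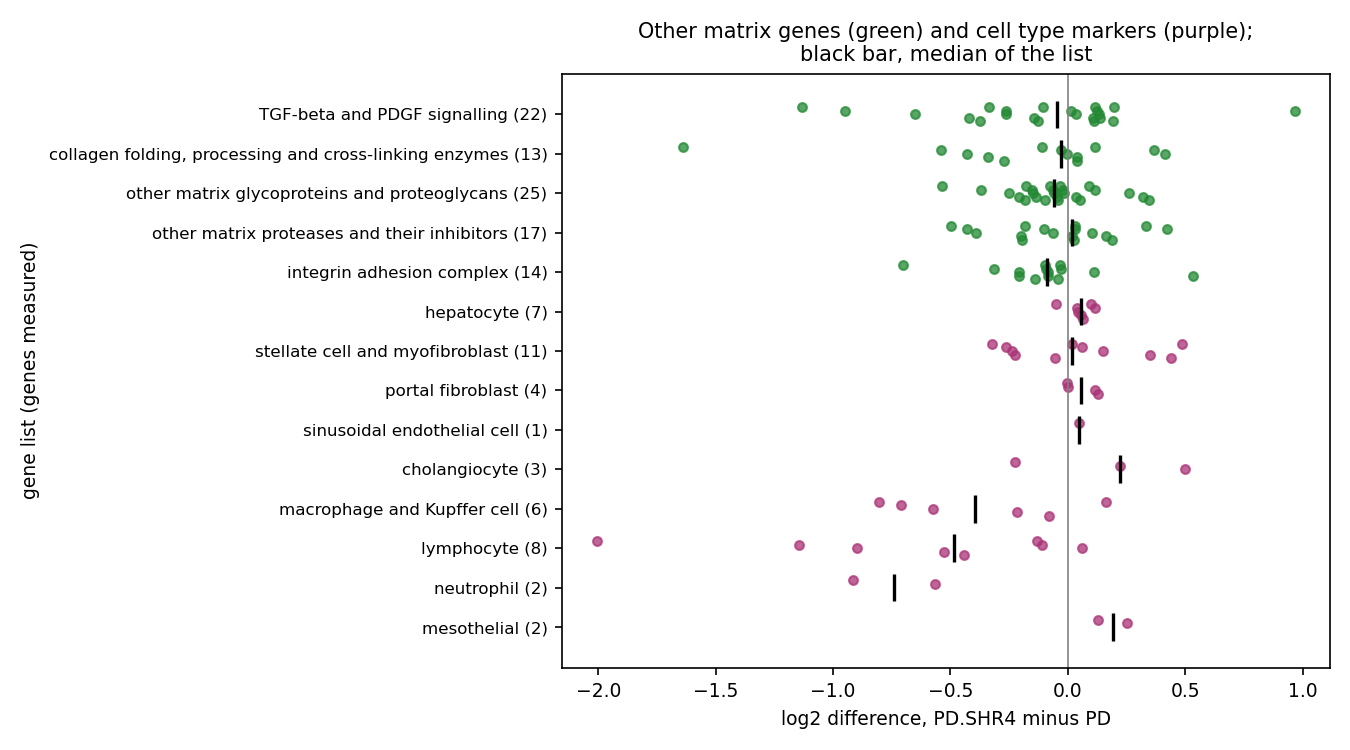
Log2 difference between the strains (x axis) of each measured gene of 5 lists of other matrix genes (green) and 9 lists of cell type markers (purple), with a black bar at each list's median and the number of genes measured in brackets. Green medians lie between -0.088 and 0.019; macrophage, lymphocyte and neutrophil markers have medians of -0.40, -0.49 and -0.74.

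Leukocyte markers other than those of macrophages also had medians below 0, and 0 passed. Of the 8 lymphocyte markers, 1 had a value above 0 and 7 below. The strains overlapped in Cd4, at 0.063, Cd79b, at -0.11, and Cd8b, at -0.13. The 8 markers had a median of -0.49, and summed to 264 to 346 in PD and 193 to 202 in PD.SHR4. Their smallest p-values belonged to the natural killer cell receptor Klrk1, at -1.14 ± 0.21 (SE; limma, adjusted p = 0.0811), and perforin, Prf1, at -0.90 ± 0.16 (SE; adjusted p = 0.0811). Granzyme B, Gzmb, named after its values were seen, measured 5.75, 5.43 and 6.85 in PD and 3.91 and 4.10 in PD.SHR4, a difference of -2.00 ± 0.42 (SE; adjusted p = 0.106). The 2 neutrophil markers had a median of -0.74, and summed to 142 to 184 in PD and 99.0 to 110 in PD.SHR4. These were S100a8, at -0.91 ± 0.17 (SE; adjusted p = 0.0855), and S100a9, at -0.57 ± 0.16 (SE; adjusted p = 0.190). Mmp8 and Mmp9, which neutrophils carry in their granules, differed by -0.11 and 0.036, and the part of these cells in any value above was not tested. Hepatocyte markers had a median of 0.058, and the 1 measured sinusoidal endothelial marker, Fcgr2b, differed by 0.049.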

How the data were processed

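Liver RNA of 2 rat strains was measured on 5 arrays. Per the labels, the authors made the deposited log2 values, for core-gene probe sets, with RMA in Affymetrix Expression Console. Partek is named beside RMA in the submitters' processing notes. Because RMA normalises arrays by quantiles, a shift shared by all genes would be removed. Software versions and genome build: not given in the sources used here. Arrays have no read depth, and their number limits the precision.

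GEO's platform annotation named the probe sets: 7603 had 1 symbol, 409 several and 785 none listed. All 42 genes matched RefSeq (GRCr8) by gene ID, used for names, gene order and promoter sequences. The strain was the only term in limma's moderated linear model (version 3.58.1, R 4.3.3), run two-sided over all 8797 probe sets with Benjamini-Hochberg adjustment at 0.05, by a script tested on simulated data. In the simulated data 6% of log2 differences of 0.585 and 68% of those of 1 were called, so a gene that did not pass may still differ. Intervals are 95% intervals of the moderated fit. Summed levels add 2 to the power of each value.

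Full statistics went to genes past the threshold, the 2 smallest p-values per role or matrix gene list, and preset genes; cell type markers were named as examples. The genes and lists were chosen with earlier results of these data known. Erythroid markers matched no probe set (0 of 4). The replicate numbers of the labels were not taken as pairs. Alternatives were leaving out each array, a replicate block, other shrinkage, filter, normalisation and array weights.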

Additional observations from a re-analysis of the deposited data

How the results depend on the processing

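Leaving out 1 array at a time gave 0 to 1 higher genes, 0 to 55 probe sets called over the whole array, and a median difference of the 42 genes of -0.022 to 0.062. The higher calls numbered 2 with an intensity trend and robust shrinkage, without the dimmest 25% of probe sets and after median centring, and 3 with array weights, against 1. The lower calls numbered 2 with array weights (Adamts1 and Pdgfrb), against 0 in every other fit. Over all probe sets 151, 149 and 819 were called with the trend, without the dimmest 25% and with array weights, against 82. The median difference was 0.090 after median centring and -0.015 with array weights. Without PD array 2, 24 genes did not overlap, against 14; that alternative was chosen after seeing the data.

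With the replicate number as a block, 163 probe sets were called, 1 of the 42 genes rose and 0 fell. PD array 3 has no same-numbered PD.SHR4 array. The block's differences therefore equal those without PD array 3, such as 1.17 for Mmp12 and 0.85 for Timp3. Deviations of same-numbered arrays from their strain means correlated at r = 0.050 and 0.082. With 2 PD.SHR4 arrays these deviations mirror each other, so each r has an opposite partner. PD array 3 gave 0.047 with PD.SHR4 array 1. The numbers are thus not shown to pair the arrays. The block changed no call among the 42 genes.

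Of 29 genes given in full, 19 kept their sign in every fit. The sign of small, uncalled differences turned for Adamts5 (-0.055 with array weights), Col23a1 (-0.044 with array weights), Dcn (-0.028 with the replicate block) and Itgb1 (0.025 after median centring). Leaving out arrays gave ranges of -0.022 to 0.11 for Adamts5, -0.074 to 0.12 for Col23a1, -0.12 to 0.26 for Dcn, -0.0077 to 0.38 for Des, -0.13 to 0.016 for Itga1, -0.18 to 0.025 for Itga7, -0.093 to 0.032 for Itgb1, -0.0012 to 0.32 for Lox, -0.022 to 0.21 for Mmp2 and -0.031 to 0.13 for Timp1. The cause was not tested.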
